A study of Homo sapiens with 10 samples.

Results

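The nuclear genes of the mitochondrial ribosomal proteins, whose symbols are MRPL or MRPS and a number, encode most of the protein part of the ribosome that works inside mitochondria. Members were taken from the GENCODE annotation, release 44 lifted to GRCh37 (hg19), as the protein-coding genes on chromosomes 1 to 22 with such a symbol. This gave 78 genes of 19229, of which 49 have MRPL symbols and 29 have MRPS symbols. They lie on 21 chromosomes, with 8 each on chromosomes 1, 2 and 17 and none on chromosome 18. The study mapped open chromatin and histone marks in MDAMB231, a human triple-negative breast cancer cell line of mesenchymal character, grown in DMEM with 5% FBS and given no treatment. FAIRE-seq recovers DNA that is not held by nucleosomes, and ChIP-seq was performed for H3K4me3, a mark of promoters, H3K27Ac, a mark of active promoters and enhancers, and H3K4me1, which is most common at enhancers. Each assay had 2 libraries, which the authors combined into 1 list of peaks, with 1 input sample for FAIRE and 1 for ChIP. The values thus carry no replicate error, and the depth is unknown from the peak lists.

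The mitochondrial ribosome translates the few messenger RNAs made from mitochondrial DNA, which code for subunits of the respiratory chain and of ATP synthase. Its ribosomal RNAs come from the mitochondrial genome, whereas its proteins are encoded by genes scattered over the nuclear chromosomes, made in the cytosol and imported. The large subunit forms peptide bonds and holds the exit tunnel, and the small subunit binds messenger RNA and reads its codons; inherited defects in several of these genes cause failure of mitochondrial translation.

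A peak was assigned to a gene when it shared at least 1 base with the window from 1000 bp before to 1000 bp after any annotated start of the gene. The members have a median of 5 annotated starts, from 1 to 30, and other genes with H3K4me3 a median of 7. The deposited lists held 18019 H3K4me3 peaks, 37495 H3K27Ac peaks, 26771 H3K4me1 peaks and 46552 FAIRE peaks. The score of a histone peak is minus 10 times the log10 of its MACS p-value, and 56.8% of the H3K4me3 peaks are at or above 3100. This value is called the ceiling here, although the highest score is 3233.06, and peak width was used to rank this mark. FAIRE peaks are valued by the height of their signal, which ran from 14 to 234.8 in the whole list with a median of 61.1.

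The cell line was checked against marker genes. All 4 lists had a peak at the promoters of VIM, AXL, CAV1 and CD44, genes of mesenchymal-like breast cancer cells, with H3K4me3 peaks 8265, 9510, 4940 and 4093 bp wide. The hormone receptor genes ESR1 and PGR had an H3K4me3 peak and none of the other 3 kinds. The promoter of the epithelial cadherin gene CDH1 had no H3K4me3 or H3K4me1 peak, an H3K27Ac peak with a score of 538 and a FAIRE peak 31.7 high. That of the luminal gene GATA3 had H3K4me3 and H3K27Ac without FAIRE or H3K4me1. PTPRC, a gene of blood cells, and ALB, a gene of liver cells, had no peak in any list, and PECAM1 was not analysed.

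An H3K4me3 peak was present at the promoters of 78 of the 78 members (95% Wilson interval from 95.3% upward), beside 67.9% of the 19151 other protein-coding genes. An H3K27Ac peak was present at 77 of them, or 98.7% (93.1% to 99.8%), beside 64.1% of the other genes. FAIRE peaks were found at 50 members, 64.1% (53.0% to 73.9%), beside 39.5%. H3K4me1 was the least frequent, at 15 members or 19.2% (12.0% to 29.3%), beside 20.6%, a share inside the members' interval. The intervals cover counting error over genes only, and genes are not replicates. H3K4me3, H3K27Ac and FAIRE were all present at 50 members, beside 36.7% of the other genes, so each member with a FAIRE peak had both promoter marks as well.

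The gap between members and other genes was smaller when the comparison was held to the 13003 other genes that also had an H3K4me3 peak. Among those, 91.0% had an H3K27Ac peak, just below the members' interval, and 55.3% a FAIRE peak, inside it. H3K4me1 was present at 27.3% of them, also inside the members' interval. For FAIRE and H3K4me1 in this window around any start, the members thus stood near the other genes that carry H3K4me3. At the canonical start itself the FAIRE shares lay farther apart, at 57.7% of members beside 37.6% of those genes. Sets of related genes, given below, had shares no lower than the members. Genes with MRPL and with MRPS symbols had like shares, with H3K27Ac at 49 and 28 genes, FAIRE at 31 (63.3%) and 19 (65.5%), and H3K4me1 at 10 (20.4%) and 5 (17.2%).

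**Figure D1:**
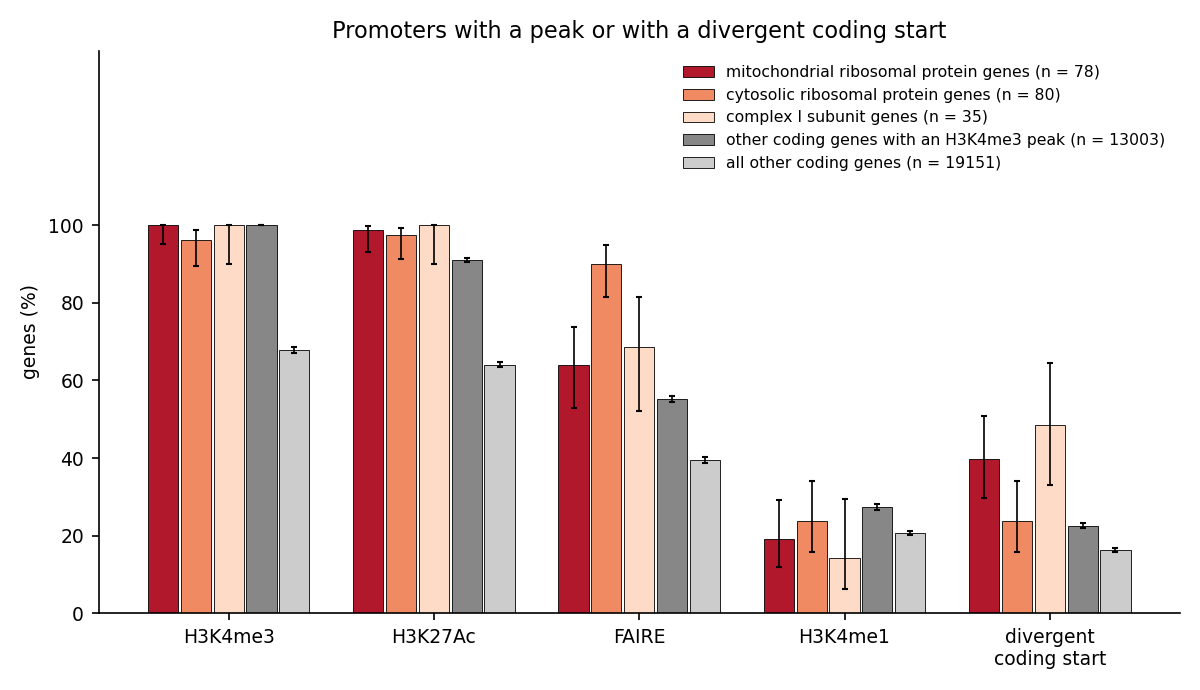
Share of genes, in percent, with a peak of each assay within 1 kb of a start or with a divergent coding start, for the members, the cytosolic ribosomal protein and complex I genes, other coding genes with an H3K4me3 peak and all other coding genes, with 95% Wilson intervals as error bars. The members stand at 100% for H3K4me3, and for FAIRE at 64.1% beside 39.5% and 55.3%.

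**Figure D2:**
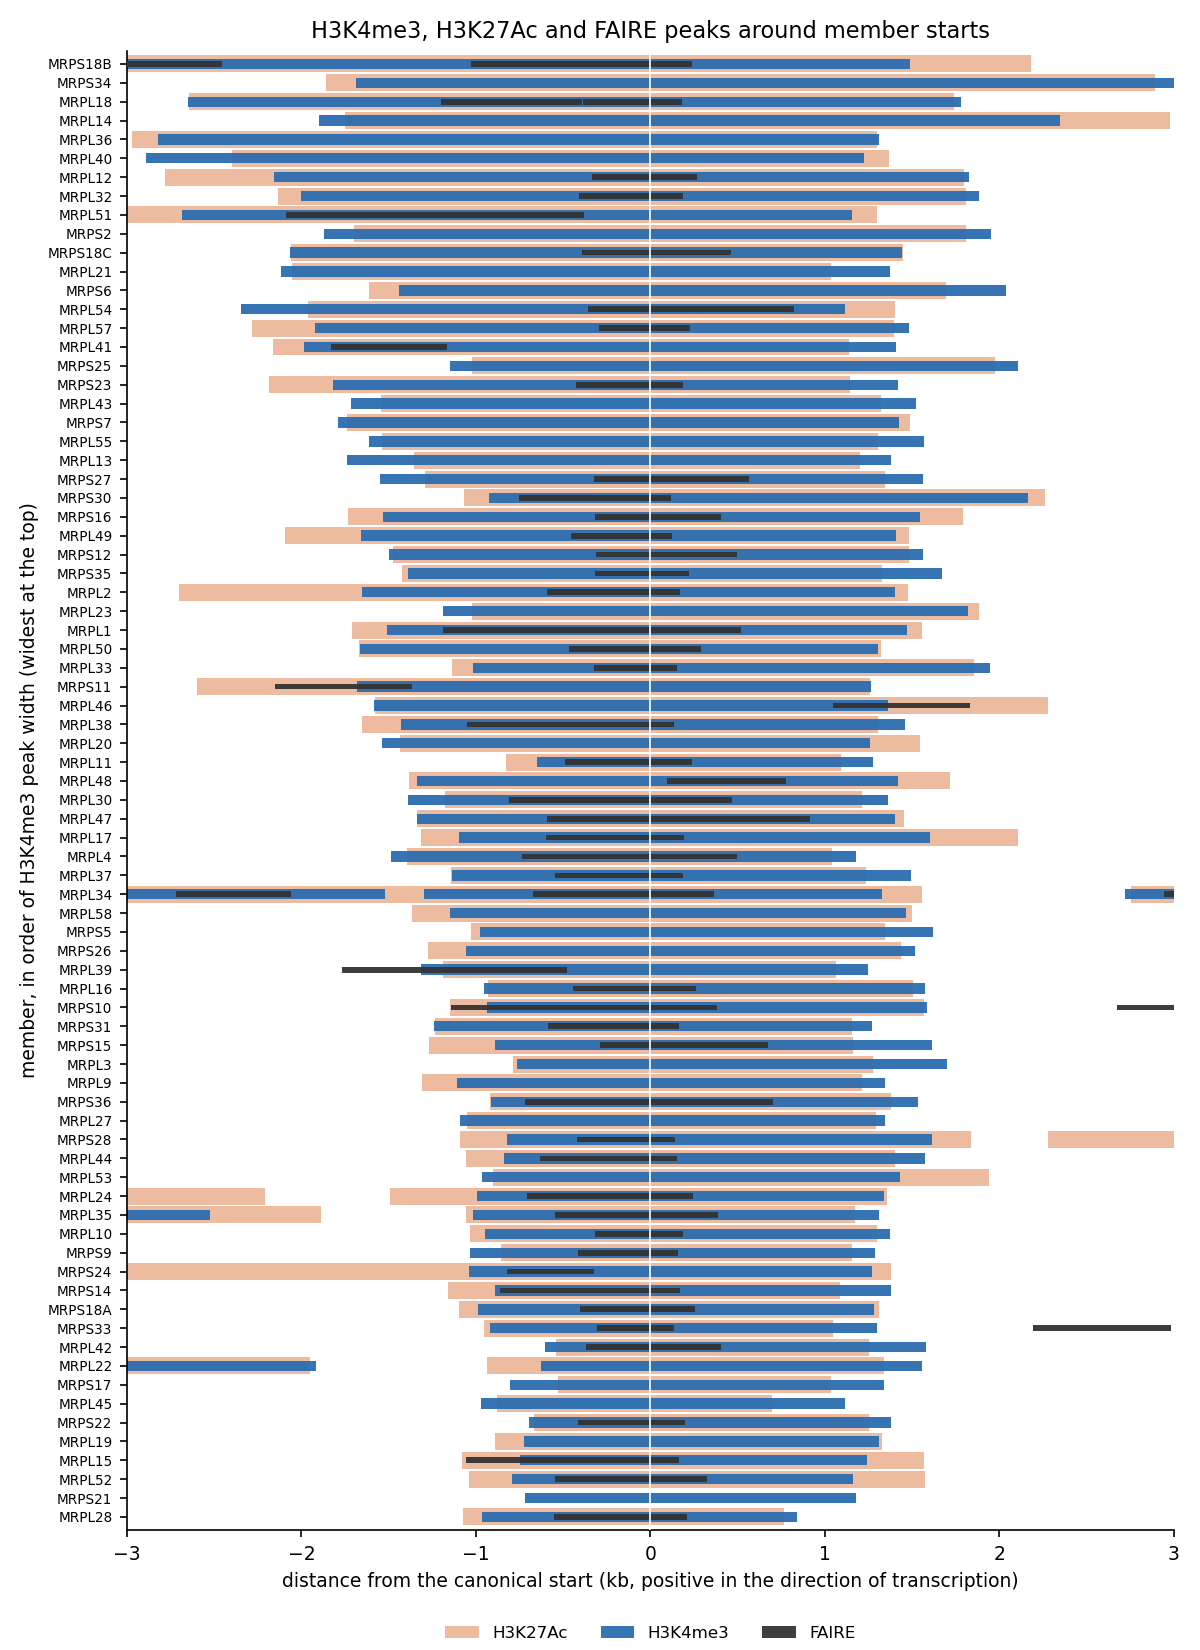
H3K4me3, H3K27Ac and FAIRE peaks within 3 kb of the canonical start of each member, 1 line per gene, oriented so that transcription runs to the right, with distance in kb on the horizontal axis. H3K4me3 covers the canonical start of 78 of 78 members, H3K27Ac that of 77 and FAIRE that of 45, and MRPL11 is drawn at its canonical start.

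The promoter sequences were read from the RefSeq promoter table (GRCh38.p14), which gives 250 bases before and 50 bases from each start. It matched 69 of the 78 members, and MRPL2, MRPL10, MRPL13, MRPL15, MRPL21, MRPL23, MRPL35, MRPS28 and MRPS36 were not matched. Short motifs were searched on both strands, and a match describes letters in the window and is not a binding site. The letters CCGGAAG, the core bound by ETS factors, were found in 30 matched members (43.5%), beside 16.8% of the 14522 other genes in the table and 22.2% of the 10311 of these with an H3K4me3 peak. AAGATGGCG, the YY1 motif, was found in 13 members (18.8%), beside 3.24% and 4.46%. The sets nearest in function held them too, with ETS in 34.9% of the 63 matched cytosolic ribosomal protein genes and 13.8% of the 29 matched complex I genes, and YY1 in 9.52% and 20.7%. Frequent YY1 letters were thus shared with complex I genes, and frequent ETS letters with genes of the cytosolic ribosome. GCGCATGCG, the NRF1 motif known from many genes of the respiratory chain, was found only in MRPL17, MRPL22 and MRPS18C (4.35%), beside 3.13% of other genes and 17.2% of complex I genes. At least 1 of these 3 motifs was present in 40 members (58.0%), beside 21.3% of other genes, 28.4% of those with H3K4me3, 44.4% of cytosolic ribosomal protein genes and 48.3% of complex I genes.

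Counted per gene, the remaining motifs were no more frequent in members than in the other genes as a whole. GGGGCGGGG, bound by SP1, was in 18 members (26.1%), beside 27.1% of other genes. CCAAT was in 23 (33.3%), beside 42.3%, and TATAAA was in 3 (4.35%), beside 12.5%. TGACGTCA, the cyclic AMP response element, was in MRPL4 alone (1.45%), beside 3.12%. A gene can have several windows in the table, on average 1.23 for members and 1.41 for other genes. Counted per window, the ETS letters were in 38.8% and 12.9% and the YY1 letters in 15.3% and 2.41%. The SP1 letters were in 22.4% and 21.2% of windows, the reverse of the order per gene. The median GC content of the members' windows was 60.0%, from 43.3% to 82.0%, beside 62.7% for other genes and 65.0% for those with H3K4me3, and the median ratio of observed to expected CpG was 0.871, beside 0.747 and 0.818. In cytosolic ribosomal protein genes the medians were 60.0% and 0.914, and in complex I genes 61.3% and 0.845. The members' windows thus had a lower GC content and a higher CpG ratio than those of other genes, as did these related sets, and the part of base composition in the motif counts was not tested.

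The places of the ETS, YY1 and SP1 matches were read in members only. With the start base counted as 0, the first base of the 40 ETS matches had a median position of -24, and 25 of the 30 members had a match that began from 50 bases before to 10 bases after the start. The 14 YY1 matches had a median of 8.5, 12 lay on the strand of the gene, and 10 of the 13 members had a match beginning between 0 and 40. The 29 SP1 matches were all upstream, with a median of -113. In members, most ETS matches thus lay before the start and most YY1 matches began on its transcribed side. Their first bases ran from -222 to 7 for ETS and from -223 to 35 for YY1. The start was reached or passed by 9 of the 40 ETS matches, and 4 of the 14 YY1 matches lay wholly upstream. Places in other genes were not compared. At least 2 ETS matches were found in 8 members, with 3 matches each in MRPS22 and MRPS34, and 4 members had both ETS and YY1. Repeated and joint matches were not counted in other genes, so these counts describe the members only.

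**Figure D3:**
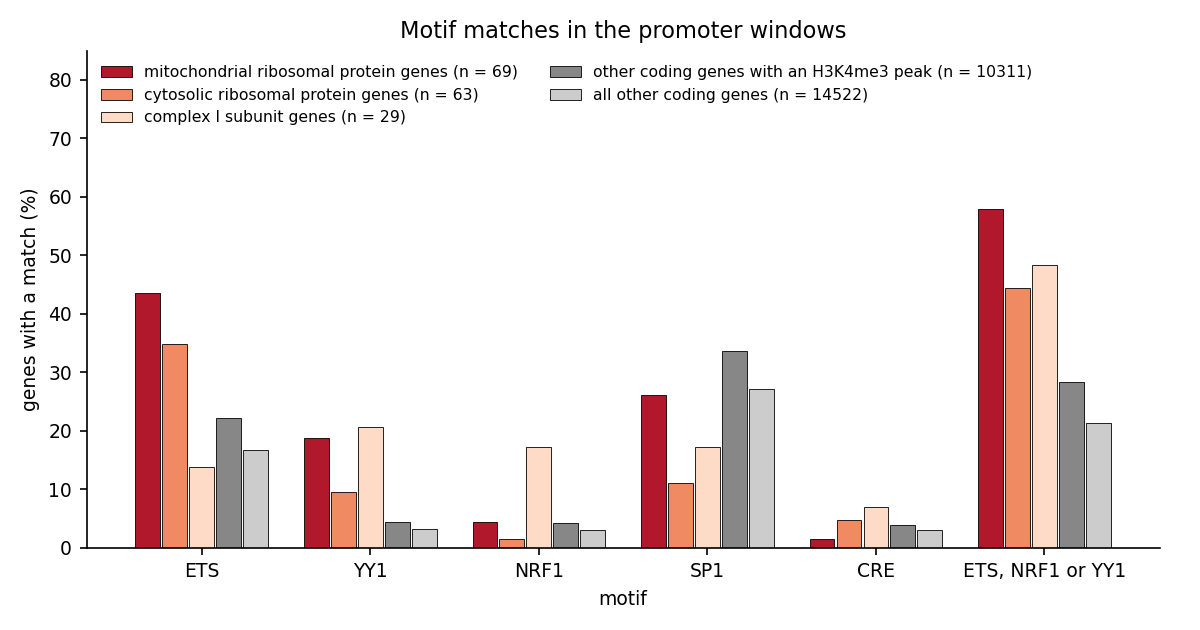
Share of matched genes, in percent, whose promoter windows hold each motif, for the members and the comparison sets. ETS and YY1 reach 43.5% and 18.8% of members beside 16.8% and 3.24% of all other genes, whereas NRF1 is at 4.35% beside 3.13%.

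Stretches upstream of the start are shown for 6 members, because they let the motifs be read in place under the open chromatin. They are those with the tallest FAIRE peak among members with an ETS, NRF1 or YY1 match inside up to 150 bases that lie before the start and in no annotated exon, so members with taller peaks whose matches lie elsewhere are not shown. Each was found by exact match in GRCh37 and is written 5′ to 3′ on the strand of the gene, with ETS and NRF1 letters in capitals and other motifs left in lower case. MRPL47 (chr3:179322438-179322477, minus strand) encodes a protein near the exit tunnel, and its 40 bases lie between its start and that of the complex I gene NDUFB5. MRPS10 (chr6:42185600-42185749, minus strand) belongs to the small subunit, as does MRPS18C (chr4:84377009-84377084, plus strand), whose stretch carries the NRF1 letters. MRPL18 (chr6:160211349-160211498, plus strand) and MRPL54 (chr19:3762530-3762679, plus strand) encode large subunit proteins, hold the ETS letters on the other strand, and lie outside the tallest FAIRE peak of their gene, under a lower one next to it. MRPL17 (chr11:6704572-6704721, minus strand), of the large subunit, holds 3 NRF1 matches, of which the first and its overlapping match on the other strand fill 1 run of 10 capitals.
MRPL47: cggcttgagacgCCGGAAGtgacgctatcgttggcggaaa
MRPS10: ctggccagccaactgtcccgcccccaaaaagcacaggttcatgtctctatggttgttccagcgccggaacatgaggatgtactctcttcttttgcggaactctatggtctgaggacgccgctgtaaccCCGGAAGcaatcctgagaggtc
MRPS18C: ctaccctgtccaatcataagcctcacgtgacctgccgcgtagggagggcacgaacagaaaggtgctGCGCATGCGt
MRPL18: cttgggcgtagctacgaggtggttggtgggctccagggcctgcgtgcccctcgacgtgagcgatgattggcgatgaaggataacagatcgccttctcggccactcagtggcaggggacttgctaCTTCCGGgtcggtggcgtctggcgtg
MRPL54: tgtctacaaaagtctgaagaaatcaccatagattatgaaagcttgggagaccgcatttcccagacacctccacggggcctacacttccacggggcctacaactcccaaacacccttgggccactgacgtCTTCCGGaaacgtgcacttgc
MRPL17: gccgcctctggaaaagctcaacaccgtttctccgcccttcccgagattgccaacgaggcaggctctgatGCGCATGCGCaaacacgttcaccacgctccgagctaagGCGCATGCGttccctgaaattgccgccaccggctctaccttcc

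The H3K4me3 peaks of the members were of middling and rather even width. Their widths ran from 1803 to 5269 bp with a median of 2756 bp (95% interval of the median 2562 to 3010 bp) and quartiles of 2416.5 and 3209 bp. The 13003 other genes with a peak had a median of 2989 bp, inside that interval, with quartiles of 2455 and 3671.5 bp. Divided by whether a divergent coding gene starts next to them, members had the lower median in both classes, 3117 bp beside 3349.5 bp with such a gene and 2519 bp beside 2857 bp without. A width of 5 kb or more was found at 1 member (1.28%), beside 6.46% of those genes, too few to tell the shares apart. The score was at the ceiling for 68 members (87.2%), beside 82.4%.

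The reach of the peaks was measured on each side of the start. From the canonical start, the H3K4me3 peak reached a median of 1420.5 bp downstream (quartiles 1310.2 and 1574.5 bp) in members and 1650 bp (1325 and 2128 bp) in other genes with H3K4me3. Upstream, the reach was 1305 bp (964 and 1687.8 bp) in members and 1240 bp (906 and 1734 bp) in the others. At 1500 bp downstream of the start 37.2% of members were still covered by H3K4me3, beside 61.0%, and at 2000 bp 6.41%, beside 27.6%. In complex I genes the median downstream reach was 1480 bp (1344.5 and 1673.5 bp), and in 72 other genes of mitochondrial translation and its supply 1523.5 bp (1329.2 and 1704.8 bp). The members' H3K4me3 peaks thus ended within a narrow span after the start, much as in these related genes, while their upstream ends were spread about as widely as those of other genes. H3K27Ac had the same form, with a median reach of 1378 bp downstream beside 1711 bp, and 1357 bp upstream beside 1376 bp. Gene length, exon positions and expression level were not compared with these distances, and their part in the difference was not tested.

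**Figure D4:**
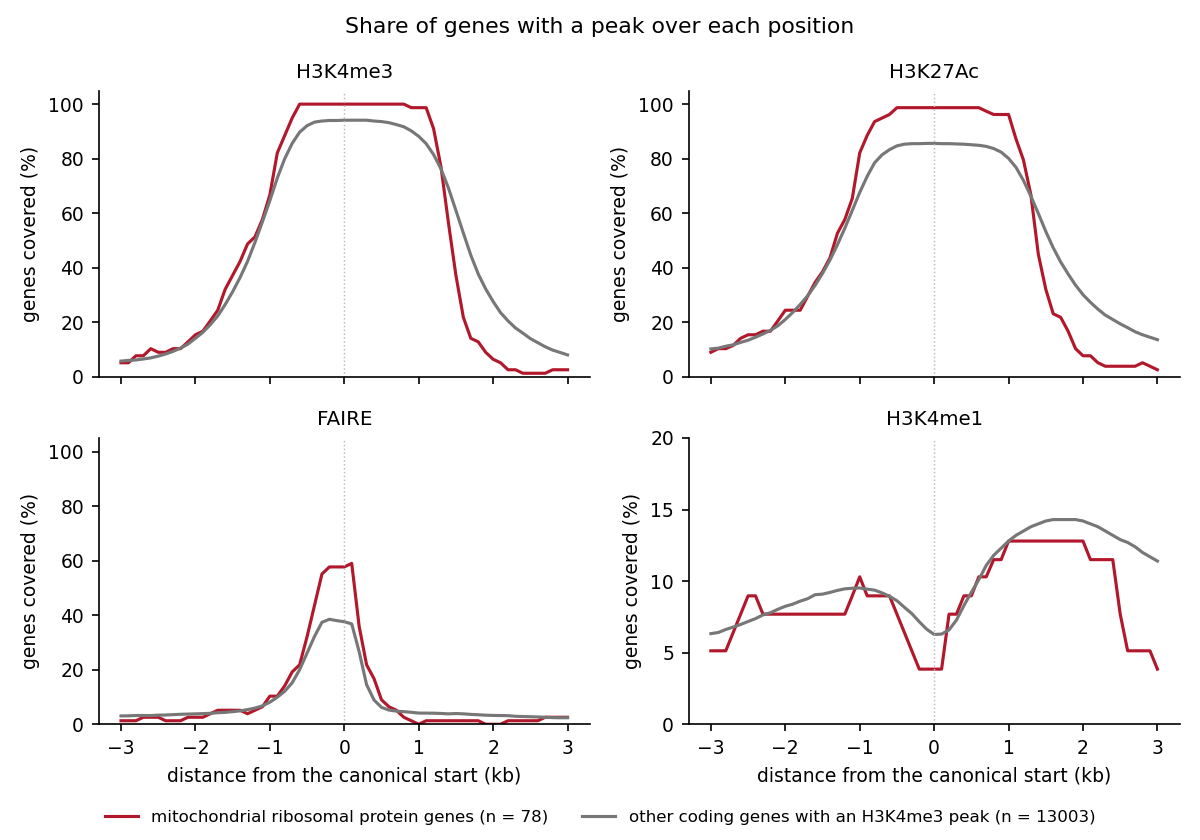
Percent of genes covered by a peak of each assay against distance from the canonical start in kb, for members and for the 13003 other genes with an H3K4me3 peak. Coverage of members by H3K4me3 falls from 100% near the start to 37.2% at 1500 bp and 6.41% at 2000 bp downstream.

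Among genes of the large subunit, MRPL18 (4430 bp), MRPL14 (4244 bp) and MRPL36 (4136 bp) had some of the 5 widest H3K4me3 peaks of all members. MRPL28, also of the large subunit, had the narrowest of all members, 1803 bp with a score of 1313, at chr16:419699-421501. MRPL52 (1958 bp), MRPL15 (1990 bp, score 2910) and MRPL19 (2039 bp) followed in the same subunit. Genes with MRPL symbols therefore spanned much of the range of width. Their median was 2759 bp and that of genes with MRPS symbols 2597 bp.

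The genes of the stalk, the arm of the large subunit that recruits translation factors, differed in both marks. MRPL12, whose protein forms the stalk and also binds the mitochondrial RNA polymerase, had an H3K4me3 peak of 3987 bp at chr17:79668240-79672226 and an H3K27Ac peak of 4579 bp with a score of 2246. MRPL10, whose protein anchors the stalk, had narrower peaks of 2324 and 2331 bp, with scores of 2937 for H3K4me3 and 395 for H3K27Ac. Their FAIRE peaks were 50.9 and 59.9 high, both below the median of the list. MRPL11, at the base of the stalk, was marked at separate starts. The wider of its H3K4me3 peaks, 2761 bp, lies at a start 27.9 kb from the canonical one, over which the peak was 1926 bp wide with a score of 3100.

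Other large subunit genes with known roles had ordinary promoters. MRPL3, whose protein lies near the site of peptide bond formation and is altered in some patients with mitochondrial disease, had an H3K4me3 peak of 2465 bp, an H3K27Ac peak of 2064 bp with a score of 546, and no FAIRE peak. MRPL44, another disease gene, had 2411 and 2462 bp, an H3K27Ac score of 512 and a FAIRE peak 47.0 high. MRPL58, which has the fold of a release factor and can free stalled peptides, had an H3K4me3 peak of 2614 bp and an H3K27Ac score of 1732 without FAIRE. MRPL23, a gene near the imprinted H19 locus, had 3010 bp of H3K4me3 and an H3K27Ac score of 1903, with its nearest FAIRE peak 117758 bp away. The lack of FAIRE at 3 of these 4 genes thus went with H3K27Ac scores from 546 to 1903.

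In the small subunit, MRPS18B had the widest H3K4me3 peak of all members, 5269 bp at chr6:30581837-30587105, and the widest H3K27Ac peak, 7310 bp with a score at the ceiling. Its FAIRE peak, 160.0 high, was second among members. The paralogues of this gene had lower values. MRPS18C had 3510 bp of H3K4me3, an H3K27Ac score of 1259 and a FAIRE height of 99.3, and MRPS18A, whose product sits in the large subunit despite its symbol, had 2271 bp, 699 and 49.97. Width, acetylation score and FAIRE height thus fell in the same order over the 3 paralogues.

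Among small subunit genes mutated in mitochondrial disease, MRPS34 had the second widest H3K4me3 peak, 4793 bp at chr16:1820033-1824825, with an H3K27Ac score of 1256 and no FAIRE peak. MRPS16 had 3079 bp, an H3K27Ac score of 2999 and a FAIRE peak 76.4 high. MRPS22 had 2073 bp, an H3K27Ac score of 725, a FAIRE peak 41.4 high and an H3K4me1 peak with a score of 68.3. MRPS34, MRPS16 and MRPS22 all had both promoter marks, H3K4me3 at or above the ceiling and the ETS letters, and differed in FAIRE and in width. Over all members 87.2% were at or above the ceiling, and 43.5% of those matched had the ETS letters. The disease gene MRPL44 of the large subunit had no ETS match. MRPS12, whose protein lines the decoding centre, had 3065 bp of H3K4me3, an H3K27Ac score of 1415 and a FAIRE peak 132 high.

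MRPS21, of the small subunit, was the single member without an H3K27Ac peak. Its H3K4me3 peak was 1900 bp wide at chr1:150265562-150267461 with a score of 189, the lowest of the members, and it had neither FAIRE nor H3K4me1. It was thus the most weakly marked member in these lists.

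For H3K27Ac, the 77 members with a peak had a median width of 2866 bp (95% interval 2650 to 3058 bp), from 1571 bp at MRPS17 to 7310 bp at MRPS18B, beside 3272 bp for other genes with a peak, above that interval. The median score was 1281.5 in members and 1370.4 in the other genes with a peak. Among members the lowest score was 60.8, at MRPL45, whose protein tethers the ribosome to the inner membrane, and MRPS17 followed with 132. MRPS24, MRPS18B and MRPL54 were at or above the ceiling, 3 of the 77, beside 1975 of the 12269 other genes with a peak. H3K27Ac therefore ranged over nearly its whole scale in genes whose H3K4me3 was mostly at the ceiling. Scores of other genes ran over the same range, from 50.16 to 3233.06. Across the 77 genes the widths of both marks had a Spearman rho of 0.78, and across 11839 other genes 0.77. These are correlations across genes of 1 cell line, whose lists were called against a common input, and genes are not independent replicates.

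**Figure D5:**
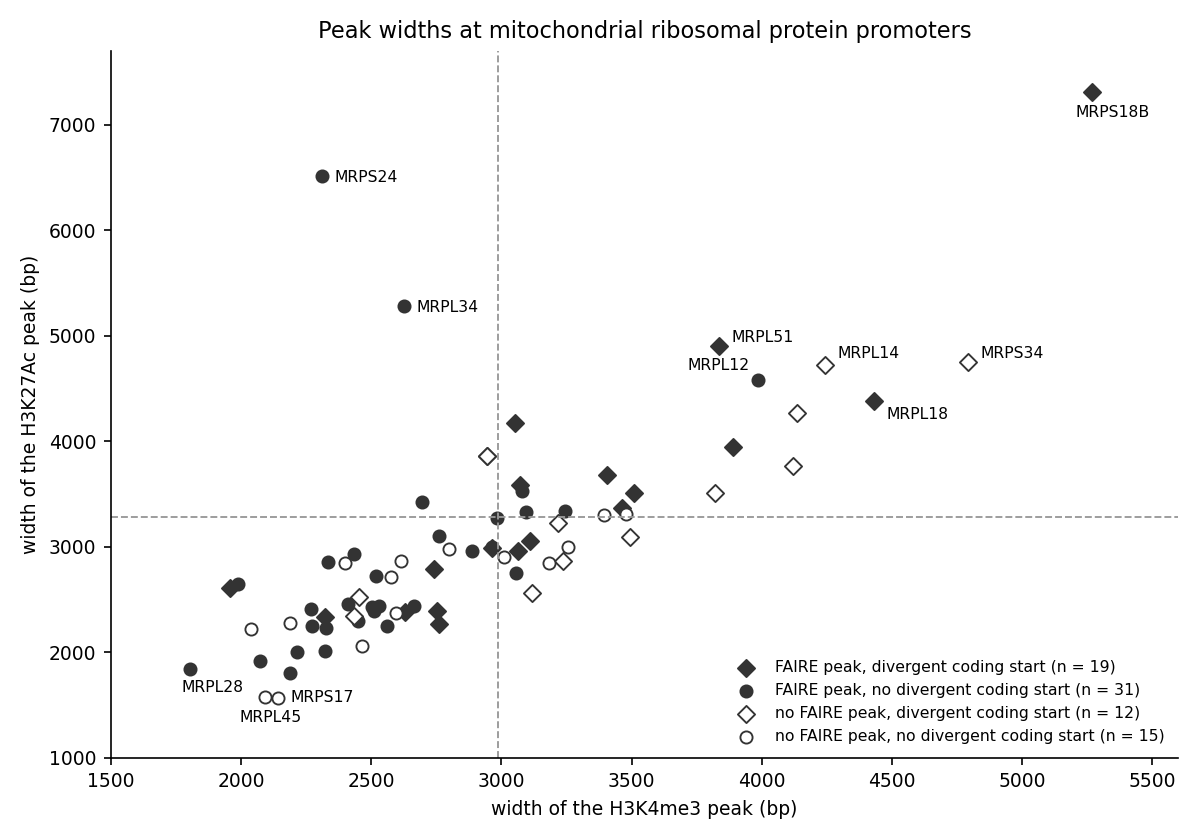
Width of the H3K27Ac peak against width of the H3K4me3 peak, both in bp, for the 77 members with both; filled symbols have a FAIRE peak and diamonds a divergent coding start, and dashed lines give the medians of other genes with H3K4me3. The widths rise together, from MRPS17 and MRPL45 at the narrow end to MRPS18B at the wide end, while MRPS24 stands apart with 6512 bp of H3K27Ac over 2313 bp of H3K4me3.

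The FAIRE peaks of the 50 members that had one were 32.4 to 182 high, with a median of 63.3 (95% interval 58.1 to 91.4) and quartiles of 48.0 and 100.8. Other genes with a peak had a median of 69.9, inside that interval, and 27 of the 50 reached the median of the whole list. MRPS30, whose product sits in the large subunit, had the tallest, 182, at chr5:44808297-44809169. After MRPS18B came MRPL24 (144.6), MRPS12 and MRPL47 (121). At the lower end MRPL39 had 32.4, MRPL57 35.2, MRPL46 37.8, MRPL16 39.8 and MRPL28 40.01. FAIRE height thus varied widely among genes whose proteins join the same particle.

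The centre of the tallest FAIRE peak lay at a median of -119.2 bp from the canonical start (quartiles -227.1 and -37 bp), upstream of it in 39 members and downstream in 11, and within 500 bp in 45. Other genes with FAIRE and H3K4me3 had a median of -127.5 bp. A FAIRE peak covered the canonical start itself in 45 members, 57.7%, beside 37.6% of other genes with H3K4me3. This share was 62.9% in complex I genes, 61.1% in the 72 other genes of mitochondrial translation and its supply, and 90.0% in cytosolic ribosomal protein genes. The open region was therefore centred a little before the canonical start, farther upstream at the median than the ETS matches. Those were measured from the RefSeq starts and in a partly different set of members. Of the 44 matched members with a FAIRE peak 20 held the ETS letters, and of the 25 without one 10 did, shares of 45.5% and 40%. For YY1 these counts were 11 and 2.

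No FAIRE peak was present at 28 members. In order of chromosome position the first 15 were MRPL20, MRPS21, MRPL9, MRPL55, MRPL53, MRPL19, MRPS5, MRPS25, MRPL3, MRPL36, MRPL22, MRPL14, MRPS17, MRPL13 and MRPS2. The nearest FAIRE peak was a median of 25813.5 bp from the canonical start of these 28 genes, and 26 had none within 5 kb. The exceptions were MRPL41, at 1167 bp, and MRPS11, at 1364 bp, both named after their values were seen. The histone marks of these promoters did not differ one way, with a median H3K4me3 width of 2978 bp beside 2719.5 bp in the 50 members with FAIRE, and a median H3K27Ac score of 1413.7 beside 1017. H3K27Ac was present at 27 of the 28 and at 50 of the 50, with median widths of 2866 and 2893 bp, and H3K4me1 at 10.7% and 24.0%. MRPS21, with no H3K27Ac, and MRPL45 and MRPS17, with the lowest scores, all lacked FAIRE. Among other genes with H3K4me3 the order of width was the opposite, 2755 bp without FAIRE and 3188 bp with it. The median GC content of the promoter windows was 64.0% in the members without FAIRE and 59.0% in those with it, and its part in the peak calls was not tested.

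H3K4me1 was low where it was present. Over the 15 members, the highest peak of each had scores from 51.6 to 216 with a median of 71.0, beside 110.9 for other genes with such a peak, and a median width of 2354 bp beside 4096.5 bp. Median scores were also low in cytosolic ribosomal protein genes (78.9), complex I genes (86.8) and the 72 other genes of mitochondrial translation and its supply (84.5). The median widths of these sets were 5182, 1888 and 2709.5 bp. MRPL14 had the highest score, 216, in a peak of 12774 bp at chr6:44082216-44094989. MRPL13 had 128, MRPS24 and MRPL1 each 126, and MRPS28 108. It covered the canonical start of 3 members (3.85%), beside 6.27% of other genes with H3K4me3, and the position 1500 bp downstream in 12.8%, beside 14.2%. The mark thus lay mostly beside the start, in members as in other genes. With the start required inside the peak, 7 members (8.97%) had H3K4me1, beside 14% of other genes. FAIRE was present at 80.0% (54.8% to 93.0%) of the members with H3K4me1 and at 60.3% (48.0% to 71.5%) of the 63 without. These intervals overlap. Counted the other way, H3K4me1 was present at 24.0% of members with FAIRE and 10.7% of those without. In other genes with H3K4me3 these shares were 36.1% and 16.4%, so the order was the same.

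Enhancer-like peaks were also counted around the members. H3K4me1 peaks that shared sequence with H3K27Ac and with no H3K4me3 peak were present within 100 kb of 37 members (47.4%), beside 53.1% of all other genes, 58.1% of those with H3K4me3, 48.6% of complex I genes and 68.1% of the 72 related genes. The median number was 0 for members and complex I genes and 1 for the other sets. The members' share was thus the lowest of these, next to that of complex I genes and not far below that of all other genes. No interval is given for these shares, and the differences between the sets were not tested.

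Many of the members share their promoter with a neighbour. A protein-coding gene on the opposite strand started upstream within 1000 bp of 31 members, 39.7% (95% Wilson interval 29.6% to 50.8%), beside 16.3% of all other coding genes and 22.6% of those with H3K4me3. With only the most upstream start of each gene counted, the number was 17 (21.8%), beside 8.56%. A divergent coding start was present at 23 genes with MRPL symbols, 46.9% (33.7% to 60.6%), and 8 with MRPS symbols, 27.6% (14.7% to 45.7%), and these intervals overlap. The median distance between the starts was 82 bp, and it was at most 100 bp at 19 members, MRPL46 and MRPS11 counting once each. All of the 31 members shared an H3K4me3 peak with the partner, as did 86.5% of 2934 other divergent genes with H3K4me3. A long noncoding RNA started divergently at 6 members (7.69%), beside 15.5% of other genes, so the neighbours of members were mostly coding genes.

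The closest pair was MRPL49 and FAU, which encodes a protein of the cytosolic ribosome, with starts 6 bp apart under an H3K4me3 peak at chr11:64888133-64891203. MRPL11 and PELI3, a ubiquitin ligase gene, were 7 bp apart, at the start of MRPL11 that is far from its canonical one. MRPL27 and the nuclease gene EME1 were 13 bp apart, and MRPL13 and MTBP, which encodes a binding partner of MDM2, were 17 bp apart. MRPL43 faced TWNK, the helicase of mitochondrial DNA, at 21 bp. MRPS27 faced PTCD2, a gene for a mitochondrial RNA-binding protein, at 25 bp, and MRPL21 faced the helicase gene IGHMBP2 at 28 bp. The closest starts thus lay only a few bases apart, with partners of varied function.

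For 6 members the partner was another member or in a list of related genes. MRPL47 and NDUFB5, and MRPL36 and NDUFS6, pair a ribosomal protein with a subunit of complex I, and in both the starts were 41 bp apart. MRPS12 and SARS2, which loads serine onto mitochondrial transfer RNA, were 181 bp apart. MRPL46 of the large subunit and MRPS11 of the small subunit face each other at 63 bp and share an H3K4me3 peak, an H3K27Ac peak and an H3K4me1 peak with a score of 69.8. The FAIRE peak at chr15:89008788-89009575 came within 1000 bp of a start of MRPL46 and not of MRPS11.

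Members with a divergent coding start had wider peaks than the rest. Their median H3K4me3 width was 3117 bp and that of the 47 remaining members 2519 bp, and for H3K27Ac the medians were 3366 and 2717 bp. The median H3K27Ac score was 1414.8 with a partner and 840.8 without. The upstream reach of H3K4me3 was 1716 bp in the former and 1015 bp in the latter, whereas the downstream reach was 1401 and 1457 bp. The added width thus lay on the side of the neighbour. Other genes with H3K4me3 had medians of 3349.5 and 2857 bp with and without a divergent start. Their upstream reach was 1813 and 1125 bp, their downstream reach 1519.5 and 1694 bp, and their median H3K27Ac score 1639.8 and 1288.0. Greater width on the neighbour's side was thus not particular to the members. FAIRE was present at 61.3% of the members with a partner and at 66.0% of those without, and in other genes at 67.5% and 51.7%.

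The rest of the pathway was described with lists of genes of related function. Of 72 such genes, all had H3K4me3 and H3K27Ac, 46 (63.9%) had FAIRE, 14 had H3K4me1 and 29 (40.3%) had a divergent coding start, shares close to those of the members. Their median H3K4me3 width was 3029 bp and their median FAIRE height 68.1. FAIRE was found at 2 of 5 genes of mitochondrial ribosomal proteins with other symbols, 13 of 24 genes for assembly and ribosomal RNA modification, 11 of 14 translation factor genes, 16 of 23 synthetase and related transfer RNA genes, and 4 of 6 genes for transcription and upkeep of mitochondrial DNA. The 35 nuclear complex I genes with NDUF symbols were also all marked by H3K4me3 and H3K27Ac, with FAIRE at 24 (68.6%), a median H3K4me3 width of 2698 bp and a divergent start at 17 (48.6%).

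The genes of the cytosolic ribosome differed from the members in FAIRE and in H3K4me3 width. Of 80 such genes 77 had H3K4me3 (96.2%) and 72 had FAIRE (90.0%), above the interval of the members' share. The median H3K4me3 width of the cytosolic set was 3722 bp, its median reach downstream 2346 bp, and its median FAIRE height 81.6, beside 2756 bp, 1420.5 bp and 63.3 in the members. A divergent coding start was present at 23.8% of the cytosolic set (15.8% to 34.1%). The members' share was 39.7% (29.6% to 50.8%), and these intervals overlap. The genes of the mitochondrial ribosome were thus closer in FAIRE share and H3K4me3 width to those of complex I and of mitochondrial translation than to those of the other ribosome.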

How the data were processed

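The authors aligned reads to GRCh37, combined the 2 libraries of each assay and called peaks against input, histone marks with MACS and FAIRE with FindPeaks. The deposited histone scores are −log10 p-values multiplied by 10, and the deposited FAIRE values are heights of signal or coverage. Members and gene lists were chosen with earlier results of these data known. Shared bases, at least 1, were counted in python 3.11.15, numpy 2.4.6 and pandas 2.3.3, and intervals computed with scipy 1.17.1. Counting was tested on simulated data against bedtools 2.31.1, and the search for divergent starts on planted pairs. For a gene with several peaks, the width is that of the widest histone peak, the score the highest of its peaks, and the FAIRE value that of the tallest peak. Intervals are Wilson's for shares and from order statistics for medians. The canonical start is that of the Ensembl canonical transcript, or the most upstream start for 251 other genes. No test was run, because the lists combine libraries.

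Genes named are those without a peak of H3K4me3, H3K27Ac or FAIRE (the first 15 by position), the 5 at each end of H3K4me3 width and FAIRE height, the 5 with the highest H3K4me1 score, the 8 closest divergent pairs and those with a partner in a list, and genes listed for their roles. Related genes without H3K4me3 are given by count only. Genes at the ends of the H3K27Ac range were named after their values were seen. Alternatives were windows of 500 bp and 2 kb, starts inside the peak, coding transcripts only, the most upstream start, stricter peaks, merged members, divergent members left out, and divergent distances of 500 bp and 2 kb. Chromosomes X and Y and the other cell type of the study were left out, since the gene set covers chromosomes 1 to 22 and the lists are of MDAMB231.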

Additional observations from a re-analysis of the deposited data

How the results depend on the processing

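Of 68 values recomputed under an alternative, 56 stayed within range of the reported one, a count within 1.5 times it or a median within its 95% interval, and 12 moved. With the divergent members left out, 47 members were counted, and H3K4me3 was present at 47, H3K27Ac at 46, FAIRE at 31 (66.0%), H3K4me1 at 7 (14.9%), and all of H3K4me3, H3K27Ac and FAIRE at 31. Fewer genes were counted there, and the H3K4me1 share fell as well, from 19.2% of all members. The median H3K4me3 width there was 2519 bp, beside 2857 bp in other genes without a divergent start, and the cause was not tested. With both thresholds changed together, to MACS p at or under 1e-10 and FAIRE peaks no lower than the list's median height, fewer peaks were counted. FAIRE was then present at 27 members (34.6%, beside 24.9% of other genes), H3K4me1 at 5 (6.41%, beside 11.5%) and all of the 3 promoter features at 27. The median FAIRE height was 99.3, beside 87.5 in other genes, and a higher median follows from leaving out the lower peaks. Members were above other genes in FAIRE height there and below them in the main setting (63.3, beside 69.9). With the start inside the peak, H3K4me1 was present at 7 members (8.97%, beside 14%), since fewer peaks were counted. The order of the H3K4me1 shares depended on the setting: members were below other genes in these and above them with the most upstream start (17.9%, beside 12.2%), coding transcripts only (19.2%, beside 16.9%) and 500 bp (19.2%, beside 18.3%). With the most upstream start only, 17 members had a divergent coding start (21.8%, beside 8.56%), since fewer starts were counted.

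No paired analysis was possible because the deposited peak lists combine the libraries of each assay, and no replicate was left out for the same reason. Depth is unknown from the lists, so a gene without a peak had none at the authors' threshold, which does not show that the mark is absent. Scores at the ceiling cannot be ranked. Peaks under a neighbour's start cannot be assigned to 1 gene of a pair.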
